A study of Oryza sativa with 15 samples.

Results

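A group of 6 genes of the rice DNA methylation machinery was followed in hybrid endosperm, allele by allele. These were the maintenance methyltransferase gene OsMET1b (LOC_Os07g08500), the chromomethylase gene OsCMT3a (LOC_Os10g01570), a gene annotated as a DNA methyltransferase (LOC_Os05g04330), the domains rearranged methyltransferase gene OsDRM2 (LOC_Os03g02010), the chromatin remodeller gene OsDDM1b (LOC_Os03g51230) and the demethylase gene OsROS1a (LOC_Os01g11900). They were chosen by locus identifier, with earlier results of these data known, and are 6 of the 13828 loci with a row in the allele tables. They hold 26 of the 62102 SNPs between Liuqianxin and Rongfeng and 24 of the 59107 SNPs between Yu6 and Wufeng. All 6 have rows in both tables, but only 5 had enough reads to be tested in the first, where OsCMT3a had 28 reads in RL against a minimum of 30.

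Cytosine methylation in plants is written and kept by several enzyme families. MET1-type enzymes copy CG methylation after replication, chromomethylases act at CHG sites in chromatin marked on histone H3, and DRM-type enzymes add methylation guided by small RNAs. DDM1-type remodellers open compact chromatin to these enzymes, and ROS1-type glycosylases cut methylated cytosine out. In endosperm, unequal methylation of maternal and paternal genomes is known to accompany imprinting, in which the parent that passed on an allele sets its activity.

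RNA of endosperm was collected 5 days after fertilization, with 20 to 30 endosperms pooled per replicate library. In the LR cross the japonica line Liuqianxin-A was the mother and the indica line Rongfeng-B the father, and RL is the reverse, Rongfeng-A by Liuqianxin-B. In the YW cross the japonica line Yu6-A was the mother and the indica line Wufeng-B the father, and WY is Wufeng-A by Yu6-B. All 4 mothers (the A lines) carry a male-sterile cytoplasm and all 4 fathers (the B lines) a fertile cytoplasm, so cytoplasm and mother cannot be told apart within a cross.

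The tables give reads with the maternal and the paternal allele at each SNP for 3 LR, 3 RL, 2 YW and 2 WY libraries, pooled within each cross. The intervals and p-values here thus cover counting error only and no spread between replicates. The exception is a joint edgeR fit, whose dispersion was estimated across the 4 crosses and not across replicates. The other tests and the intervals take the counts of the SNPs as independent, although a read over several SNPs counts at each. Where SNPs of a gene lie close together, these intervals can be too narrow and these p-values too small. Summed over SNPs the crosses held from 29149713 to 34433249 reads. Endosperm has 2 maternal genomes and 1 paternal genome, which puts an unbiased gene at a maternal share of 66.7%. The median tested locus lay at 67.1% in LR and 75.1% in YW, the crosses with a japonica mother, and at 63.8% in RL and 62.9% in WY. Of the endosperm markers, 5 of 5 had rows in the first table and 4 of 5 in the second, with summed levels from 3799 to 17184 RPM (allele reads per 1000000 in the cross). Wx alone gave 6569 RPM in LR and 14135 RPM in RL and has no row in the second table. The markers differed between reciprocal crosses, and not all in the same direction. NF-YB1 had 612 RPM in LR against 70.5 RPM in RL, FIE1 40.2 RPM against 5.61 RPM, and NF-YC12 1394 RPM against 989 RPM. RPBF went the other way, like Wx, with 1387 RPM in LR against 1983 RPM in RL. In YW and WY, in that order, NF-YB1 had 679 and 340 RPM and FIE1 42.3 and 18.6 RPM. NF-YC12 had 1545 and 798 RPM there, and RPBF 1532 and 3660 RPM. The part of the markers in the levels below was not tested. None of the 3 marker genes of maternal seed tissue and not the embryo marker had a row, which says nothing of their level, since a gene without a scored SNP has no row. Of 2 green tissue markers 1 had rows, the Rubisco small subunit gene LOC_Os12g17600, at 102 RPM in LR and 138 RPM in YW against 30.8 in RL and 45.1 in WY. Its maternal share was 46.7% in LR and 50.3% in YW against 78.3% in RL and 69.4% in WY. The part of this marker in the shares below was not tested.

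The alleles that carry the findings differ by single bases, written here as the reference base, its position in the transcript as the tables list it, and the alternative base. OsMET1b was read at C145T, T187C, T310C and A893G, and LOC_Os05g04330 at A451G, A534G, G1802A, T2385A and C2473T, with G290C added in YW and WY. OsDRM2 was read at A100G, A1849G and C1865A in LR and RL and at A1849G alone in YW and WY. OsCMT3a was read at G1377A only. In LR and RL the reference base belongs to Liuqianxin at every one of these SNPs except G1377A, where it belongs to Rongfeng. The sources used here do not give the genome build behind the coordinates below.

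Parental calls among these genes were all paternal. Because the genes were chosen with earlier results of these data known, the shares over all loci are given for scale and measure no enrichment. In LR-RL, 4 of 5 tested genes were called paternal and 0 maternal, where 6.87% and 2.03% of all 10867 tested loci were so called (8.91% in either direction). In YW-WY, 2 of 6 were called paternal and 0 maternal, where 3.73% and 5.99% of 11443 tested loci were (9.72% in either direction). OsMET1b and LOC_Os05g04330 were called in both sets, and OsDDM1b and OsROS1a in LR-RL. A call required an adjusted p under 0.05 in the cross with the larger p (exact two-sided binomial test, Benjamini-Hochberg over all tested loci) and shares below 66.7% in both crosses. The median departure (log2 of the maternal to paternal ratio over 2:1, mean of both crosses) of the tested genes in LR-RL was -0.94, beside -0.07 over all tested loci. The same values were -0.83 and 0.15 for YW-WY. With only the SNP with most reads of each locus, 2 genes were called paternal in LR-RL in place of 4. A joint edgeR fit of the 4 crosses called 2 of 5 paternal and 0 maternal, where it called 6.73% and 2.53% of 9753 loci.

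**Figure D1:**
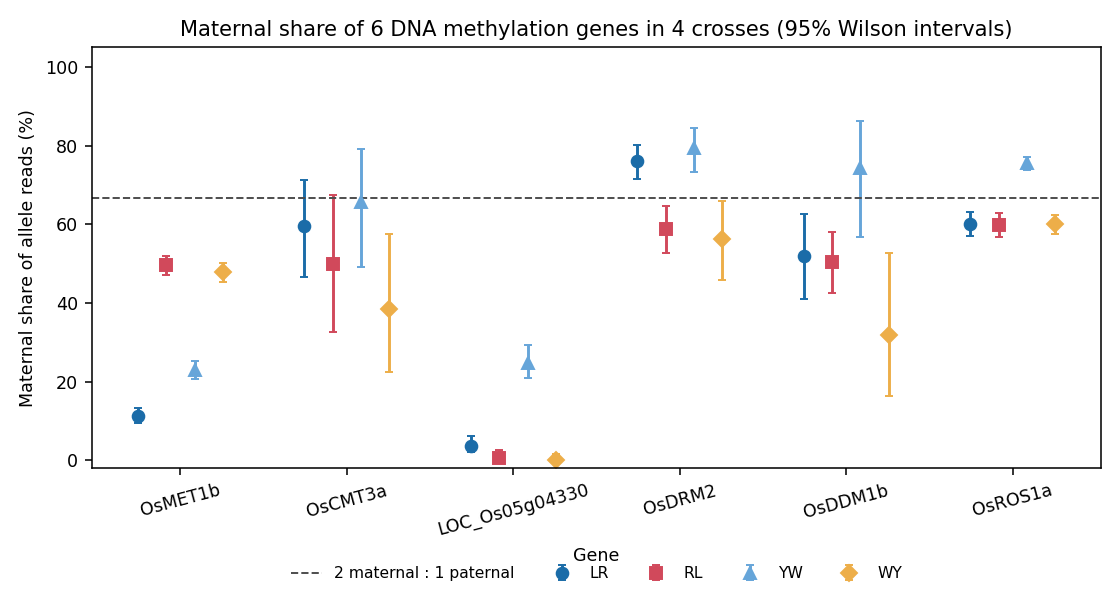
Maternal share of allele reads (percent, vertical axis) for the 6 genes in LR, RL, YW and WY, with 95% Wilson intervals and a dashed line at 66.7%. LOC_Os05g04330 lies at or below 24.8% and OsMET1b at or below 49.5% in all 4 crosses, while OsDRM2 and OsROS1a lie on both sides of the line.

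LOC_Os05g04330 was read almost only from the paternal allele when the mother was Liuqianxin, Rongfeng or Wufeng, and mostly from it when the mother was Yu6. The table annotates it as a putative DNA methyltransferase protein (chromosome 5, SNPs from 1965885 to 1973478). In LR 11 of 314 reads were maternal, a share of 3.5% (Wilson 95% interval 1.97 to 6.16). In RL 1 of 216 reads was maternal, 0.463% (0.0818 to 2.58). In WY 0 of 235 reads were maternal, which allows a share of up to 1.28% by 3 counts and of up to 1.61% by the Wilson interval. YW stood apart, with 100 maternal reads of 403, a share of 24.8% (20.8 to 29.3), and its interval did not overlap those of the other crosses.

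Per genome copy, the paternal allele of LOC_Os05g04330 gave 55.1 times the reads of the maternal allele in LR (interval 30.5 to 99.7) and 6.06 times in YW (4.84 to 7.59). The ratio was 430 in RL, resting on 1 maternal read (interval 75.7 to 2444). In WY it was 157-fold with 3 counts of the cross taken for the maternal 0, and at least 122-fold by the Wilson limit. The paternal call had an adjusted p of 7.98e-100 for LR-RL and one of 6.58e-65 for YW-WY (exact binomial test, larger p of both crosses). The joint edgeR fit gave it an adjusted p of 3.82e-70, with the share below 2:1 in 4 of 4 crosses. By the mean departure of LR and RL, which is not from the joint fit, 37 of 10867 loci lay farther toward the father than LOC_Os05g04330.

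The skew of LOC_Os05g04330 held along the transcript. The SNP shares ran from 0% to 9.09% for LR and from 0% to 2.50% for RL, on 22 to 101 reads per SNP. In WY all 6 SNPs had 0 maternal reads, on 19 to 71 reads each. In YW they ran from 15.2% at A451G to 36.0% at G1802A. Between A534G (20.3%) and G1802A lie 5282 bases of genome and 1268 of transcript, too far apart for 1 short read to cover both. In the authors' deposited table every SNP of the gene had a false discovery rate under 0.05 in every cross, and all lay on the paternal side of 2:1.

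OsMET1b also favoured the paternal allele in every cross, but by far more when the mother was japonica. The gene lies on chromosome 7 (SNPs from 4389861 to 4391001) and is annotated as a C-5 cytosine-specific DNA methylase. Maternal reads numbered 107 of 956 in LR, a share of 11.2% (9.35 to 13.3), and 810 of 1635 in RL, a share of 49.5% (47.1 to 52.0). In YW 309 of 1350 reads were maternal, 22.9% (20.7 to 25.2), and in WY 785 of 1641, 47.8% (45.4 to 50.3). The shares of RL and WY overlapped in their intervals, while those of LR and YW did not overlap with each other or with these.

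Averaged over both directions, a paternal copy of OsMET1b gave 5.67 times the reads of a maternal copy in LR-RL (interval 5.08 to 6.34, adjusted p = 5.89e-45, exact binomial test). In YW-WY the ratio was 3.83 (3.54 to 4.15, adjusted p = 3.45e-54, exact binomial test). By crosses it ranged from 2.04 in RL to 15.9 in LR. Of the tested loci, 2.27% (LR-RL) and 2.80% (YW-WY) lay farther toward the father. The joint edgeR fit gave a departure of -2.22 (log2, SE 0.23, adjusted p = 5.91e-21), below 2:1 in 4 of 4 crosses.

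All 4 SNPs of OsMET1b lay below 2:1 in all 4 crosses, and the authors' deposited table gives each a false discovery rate under 0.05 in each cross. In LR the SNP shares stayed between 8.38% and 13.3%, and in YW between 21.4% and 24.5%. With an indica mother the range was wider, from 43.4% at C145T to 57.6% at T310C in RL and from 42.2% at C145T to 55.4% at A893G in WY. C145T and T187C are 42 bases apart and can be covered by the same reads, so their counts are not independent.

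**Figure D2:**
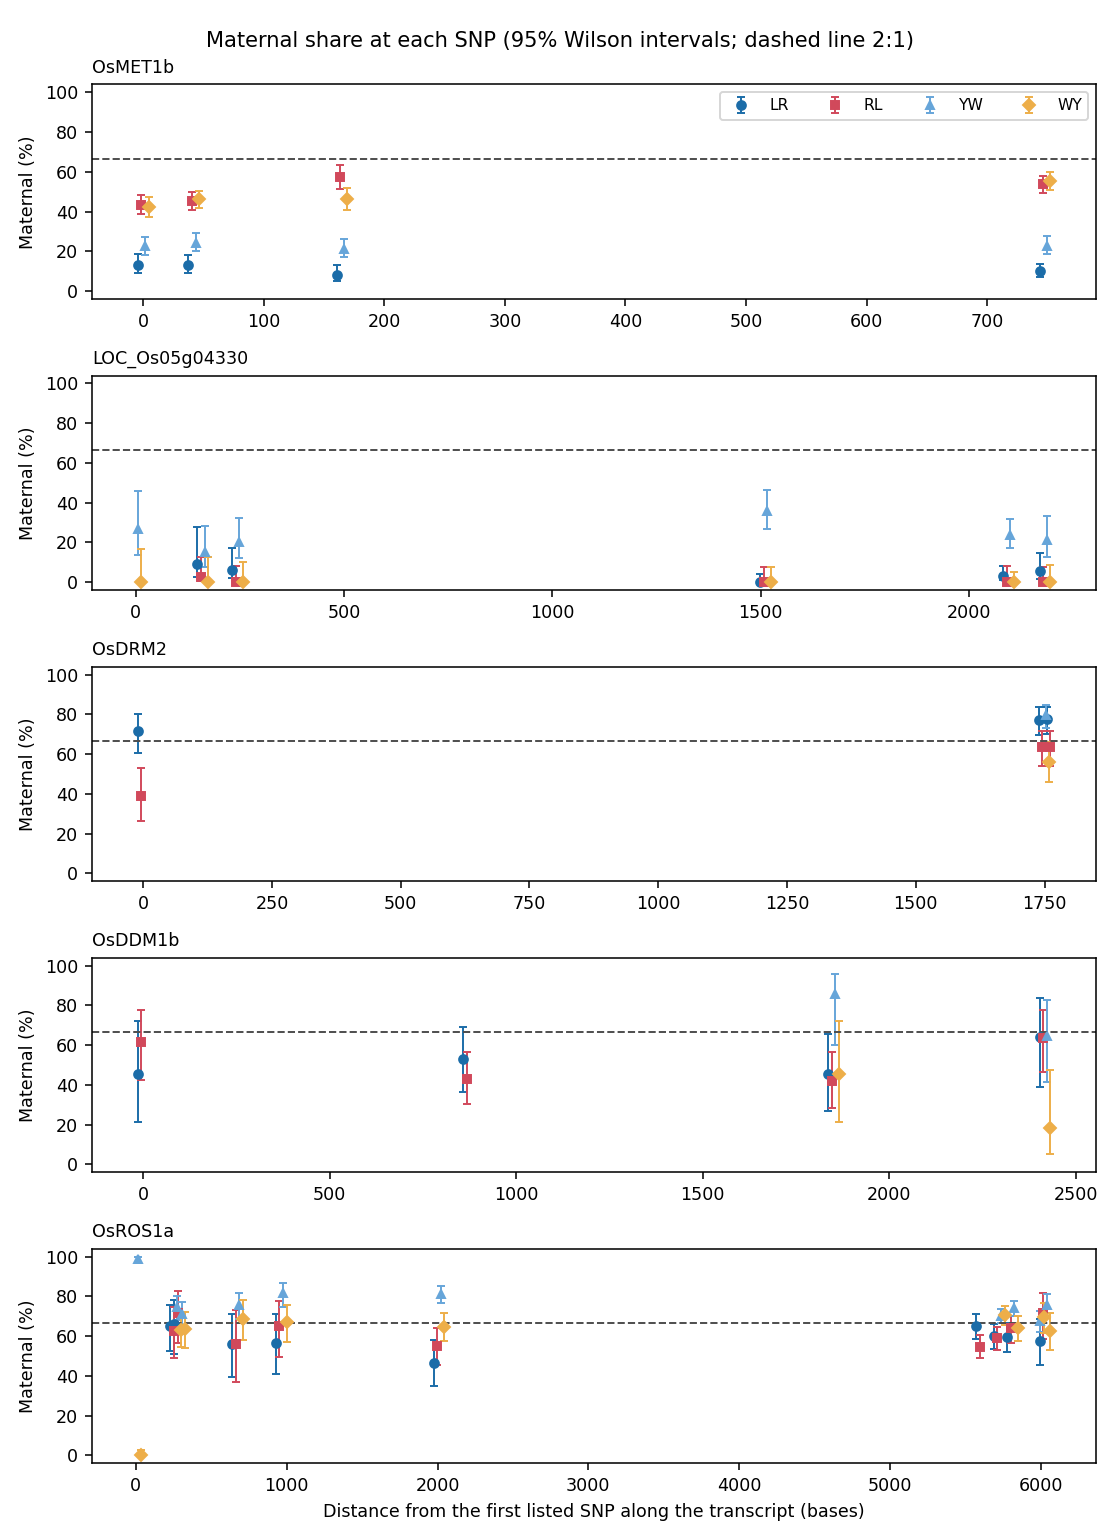
Maternal share at each SNP (percent, vertical axis, 95% Wilson intervals) against the distance along the transcript from the first listed SNP (bases) in 5 genes, with the dashed line at 66.7%. The 4 OsMET1b SNPs keep LR lowest and YW next, and the first OsROS1a SNP sits at 99.0% in YW and 0% in WY while the other SNPs of that gene lie between 46.4% and 81.4%.

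Each OsMET1b allele can also be followed from mother to father, where fewer cells of a type and less RNA per cell cannot be told apart. The Liuqianxin allele gave 3.60 RPM as the maternal copies in LR (exact Poisson 95% interval 2.95 to 4.35) and 23.96 RPM as the paternal copy in RL (22.4 to 25.7), so it was 6.63 times higher from the father (5.42 to 8.10). The Yu6 allele gave 10.6 RPM from the mother and 29.2 from the father, 2.75 times higher (2.42 to 3.14). The Rongfeng allele gave 23.5 RPM from the mother and 28.6 RPM from the father, 1.21 times higher (1.10 to 1.34). The Wufeng allele gave 26.8 and 35.7 RPM, 1.33 times higher (1.21 to 1.46). The 4 paternal values thus lay between 23.96 and 35.7 RPM. Within each set the low value was that of the japonica allele from the mother. The total reads behind RPM come from 62102 SNPs for LR-RL and 59107 for YW-WY, so values of the 2 sets are not strictly comparable.

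For LOC_Os05g04330 the paternal allele gave 6.24 RPM for Liuqianxin and 10.2 RPM for Rongfeng, and 8.02 RPM for Yu6 and 10.4 RPM for Wufeng. The maternal alleles gave 0.370 RPM for Liuqianxin, 0.0290 for Rongfeng (1 read), 3.43 for Yu6 and 0 for Wufeng, where 3 counts would be 0.102. The Wufeng allele was at least 102-fold lower from the mother than from the father. The values of Liuqianxin and Rongfeng rest on 5 SNPs and those of Yu6 and Wufeng on 6, so levels of the gene can be compared within a set only. These levels are shares of each cross's reads in 1 pooled value per cross, and were not tested. Over all tested loci the median ratio of an allele from the mother to the same allele from the father ran from 1.57 for Rongfeng to 2.63 for Yu6.

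**Figure D3:**
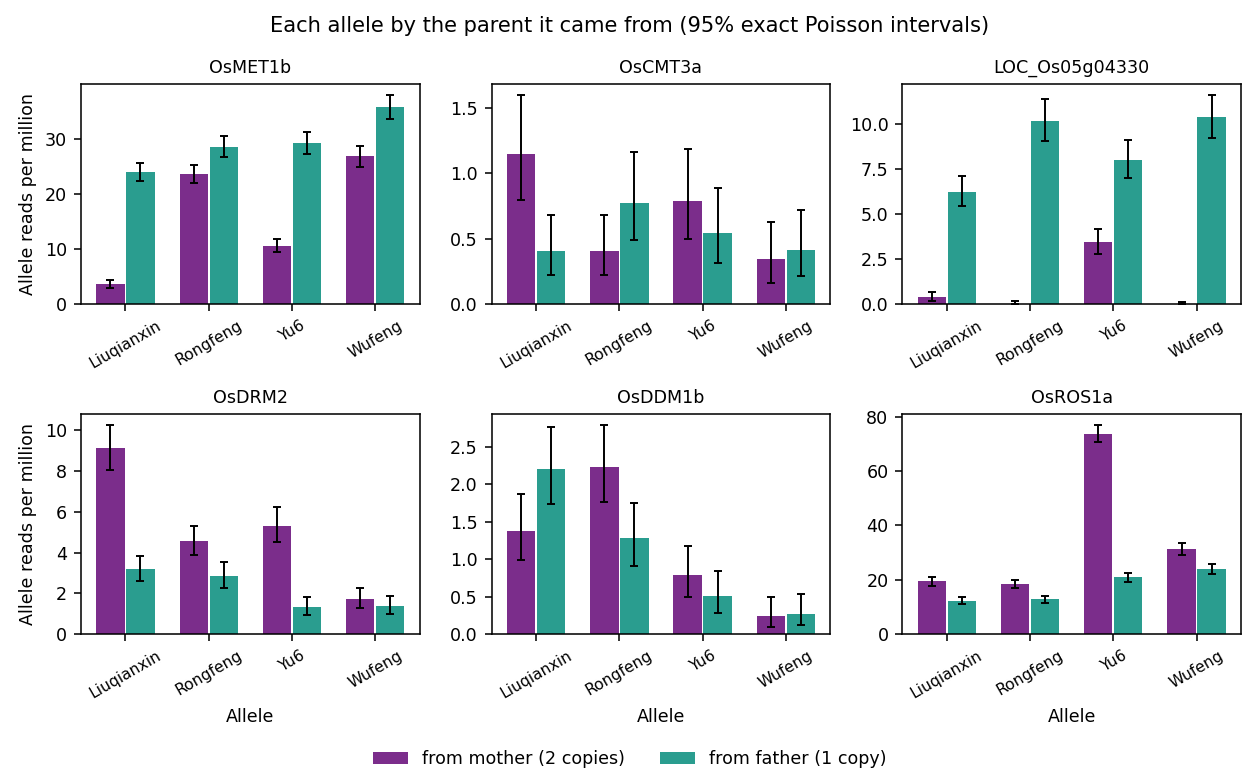
Allele reads per 1000000 reads of the cross (vertical axis, from 0) of each parental allele of the 6 genes, inherited from the mother (2 copies, purple) or from the father (1 copy, green), with 95% exact Poisson intervals. The japonica alleles of OsMET1b (Liuqianxin and Yu6) are low from the mother at 3.60 and 10.6, and the maternal bars of LOC_Os05g04330 are near 0 except for Yu6 at 3.43.

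OsDDM1b had few reads. A SNF2-type remodeller gene on chromosome 3 (29306414 to 29311404), it had 41 maternal reads of 79 in LR, 51.9% (41.1 to 62.6), and 77 of 153 in RL, 50.3% (42.5 to 58.1). A paternal copy gave 1.91 times the reads of a maternal copy (1.46 to 2.51, adjusted p = 0.0222, exact binomial test). The call was lost with fewer SNPs (adjusted p from 0.0717 to 0.313, exact binomial test). The joint edgeR fit, which includes YW and WY, made no call (adjusted p = 0.188). The departure itself stayed between -0.86 and -1.11 (log2) in these settings, against -0.94. In YW-WY the shares were 74.2% (23 of 31 reads, 56.8 to 86.3) and 31.8% (7 of 22, 16.4 to 52.7), on opposite sides of 2:1, and no parental call was made (adjusted p = 0.590, exact binomial test). The sources used here do not say how reads shared with a paralog were counted, so the counts of this gene, which has a paralog in DDM1a, are uncertain, as are those of OsMET1b with its paralog MET1a.

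OsROS1a (chromosome 1, 6444474 to 6455786), annotated as a base excision DNA repair protein, had a small paternal departure in LR-RL. Its share was 60.2% in LR (576 of 957 reads, 57.1 to 63.2) and 59.8% in RL (633 of 1058, 56.8 to 62.7), almost the same in both directions. A paternal copy gave 1.33 times the reads of a maternal copy (1.22 to 1.46, adjusted p = 1.08e-04, exact binomial test). The median tested locus was below 2:1 in RL (63.8%) and above it in LR (67.1%). With the cross medians as the null the call was kept (departure -0.33, adjusted p = 0.0262, exact binomial test). With only the SNP with most reads the departure was -0.45 (log2) against -0.42, and the call was lost (adjusted p = 0.0907, exact binomial test), as it was in the joint edgeR fit (adjusted p = 0.981).

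In YW-WY the share of OsROS1a was 75.5% in YW (2150 of 2846 reads, 73.9 to 77.1) and 60.0% in WY (916 of 1527, 57.5 to 62.4). These lie on opposite sides of 2:1 and gave no parental call. A single SNP lowered the share of WY. At C156T, scored only in this table, 204 of 206 reads were maternal in YW and 0 of 151 in WY, which allows up to 1.99%, so it was read from the Yu6 allele almost alone in both directions. The next SNP, C419T, is 263 bases away in both genome and transcript and had 74.8% in YW and 63.2% in WY. Without C156T, a choice made after the data had been seen, the gene was at 73.7% in YW, where the median locus was at 75.1%, and at 66.6% in WY, where the median locus was at 62.9%.

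OsDRM2 (chromosome 3, 632733 to 635923), annotated as a DNA methyltransferase protein, had no parental call, and its shares lay on opposite sides of 2:1. Its maternal share was 76.1% in LR (271 of 356 reads, 71.4 to 80.3) and 58.8% in RL (157 of 267, 52.8 to 64.5). In YW-WY it was 79.5% (155 of 195, 73.3 to 84.6) and 56.2% (50 of 89, 45.8 to 66.02). The japonica-mother crosses were thus above 2:1 and the indica-mother crosses below it in both sets. A1849G and C1865A are 16 bases apart and gave the same counts in RL (69 maternal and 40 paternal reads), and a read over both is counted at each. At A100G, at the other end of the transcript, the share was 71.4% in LR and 38.8% in RL.

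OsCMT3a (chromosome 10, position 377370) was read at 1 SNP with 26 to 57 reads per cross, which leaves wide intervals. Its share was 59.6% (46.7 to 71.4) for LR and 50% (32.6 to 67.4) for RL, then 65.7% (49.2 to 79.2) for YW and 38.5% (22.4 to 57.5) for WY. The 4 intervals overlapped. In YW-WY a paternal copy gave 1.83 times the reads of a maternal copy on average (interval 1.09 to 3.07), and no parental call was made, since the larger p of both crosses, that of YW, gave an adjusted p of 1 (exact binomial test). In the authors' deposited table the SNP had a false discovery rate of 0.00617 in WY, on the paternal side, and of 0.924 in YW. The gene was not tested in the other set. A chromomethylase, it is annotated as a C-5 cytosine-specific DNA methylase.

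Strain effects, tested as a difference of the maternal share between the reciprocal crosses, were found at 2 of 5 genes in LR-RL and 5 of 6 in YW-WY. Such calls are common: 60.4% of the loci tested for LR-RL and 71.5% of those for YW-WY had one. OsMET1b was the gene with more reads from the indica allele, 2.79 times per copy in LR-RL (adjusted p = 2.70e-94, Fisher's exact test) and 1.76 times in YW-WY (adjusted p = 2.52e-45). Indica calls made up 22.7% and 11.4% of loci in the same order. These OsMET1b ratios average the alleles from the mother and from the father. From the mother Liuqianxin gave 3.60 RPM and Rongfeng 23.5 RPM, and from the father 23.96 and 28.6 RPM. Likewise Yu6 gave 10.6 RPM and Wufeng 26.8 RPM from the mother, and 29.2 and 35.7 RPM from the father. OsDRM2 had more reads from the japonica allele, 1.49 times in LR-RL (adjusted p = 1.38e-05, Fisher's exact test) and 1.73 times in YW-WY (adjusted p = 1.81e-04), and japonica calls made up 37.7% and 60.1% of loci.

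In YW-WY japonica calls were also made at LOC_Os05g04330 (adjusted p = 4.92e-22, Fisher's exact test), OsDDM1b (adjusted p = 0.00693) and OsROS1a (adjusted p = 1.58e-25). The call of LOC_Os05g04330 rests on its maternal reads, 100 for Yu6 and 0 for Wufeng. From the father the order was the reverse, with 8.02 RPM for Yu6 and 10.4 RPM for Wufeng. The paternal alleles of LR-RL likewise gave 6.24 RPM for Liuqianxin and 10.2 RPM for Rongfeng. In LR-RL LOC_Os05g04330 had a strain value of 1.22 ± 0.63 (log2, SE) toward japonica and was not called (adjusted p = 0.0540, Fisher's exact test), and strain effects were not tested for a difference between the sets. The OsROS1a ratio in YW-WY was 1.44 times per copy, or 0.52 (log2). That value was 0.25 without C156T and 0.11 against the median ratio (adjusted p = 0.0377). With only the SNP with most reads it was -0.018 and the call was lost (adjusted p = 0.925). Set against the median of all loci, which was 0.41 (log2) toward japonica in YW-WY, OsDRM2 and OsDDM1b were no longer called and 3 of 6 genes were. In LR-RL the japonica base is the reference base at OsMET1b and OsDRM2, so the strain effect of OsMET1b ran against the reference base and that of OsDRM2 toward it.

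The parental departure differed between the cross sets at 2 of 5 genes tested in both, OsMET1b and OsROS1a, each more maternal in YW-WY. This direction was called at 39.2% of the 9753 loci tested in both sets and the opposite at 3.74% (42.9% in either direction). OsMET1b went from -2.50 (log2) in LR-RL to -1.94 in YW-WY, a difference of 0.57 ± 0.10 (SE, adjusted p = 1.76e-07, z test on counts, Benjamini-Hochberg). OsROS1a went from -0.42 to 0.11, a difference of 0.52 ± 0.08 (adjusted p = 2.55e-09, z test on counts). Taken from the median ratio of each cross, the differences were 0.31 and 0.27 and the calls were kept. LOC_Os05g04330 had a larger difference of 0.71 ± 1.20 (SE) and was not called (adjusted p = 0.668, z test on counts). Its SE is wide because WY had 0 maternal reads, so this test could hardly call it. Its maternal shares were 3.5% in LR against 24.8% in YW, with intervals that did not overlap, and 0.463% in RL against 0% in WY.

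**Figure D4:**
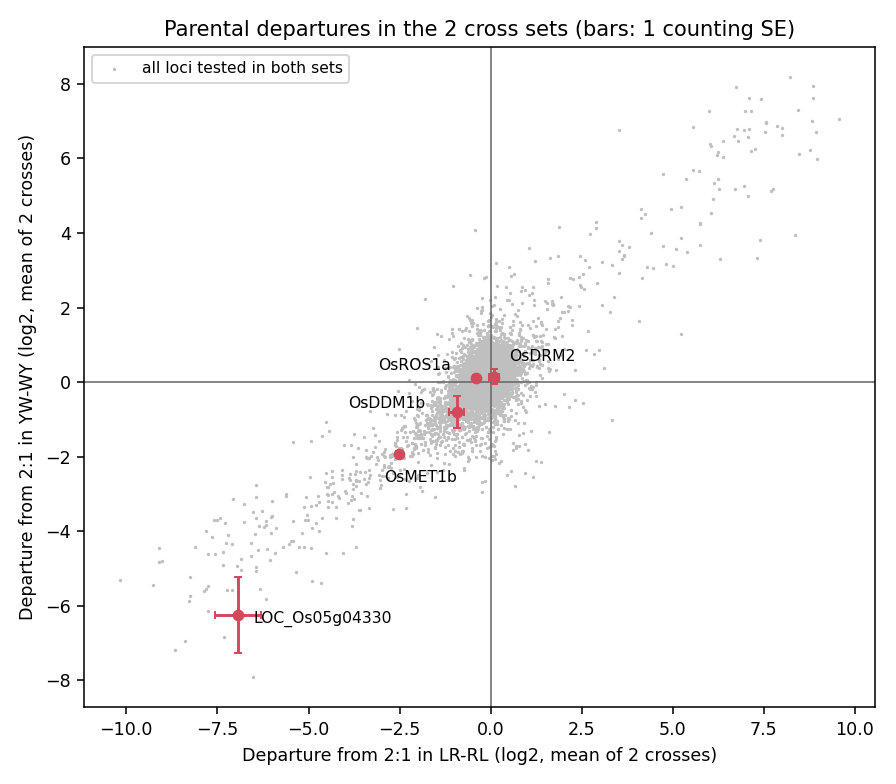
Departure from 2:1 (log2, mean of both crosses; negative values are paternal) in LR-RL on the horizontal and YW-WY on the vertical axis for 9753 loci (grey) and 5 genes (red, bars 1 counting SE). OsMET1b lies at -2.50 and -1.94 and LOC_Os05g04330 far below 0 on both axes, where its vertical value rests on 0.5 added to a count of 0.

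By the distance of the 4 departures (Euclidean, log2), the locus most like OsMET1b among those tested in both sets was the VTC2 gene LOC_Os12g08810 at 0.58, with maternal shares of 13% for LR and 57.4% for RL, and 25.9% for YW against 45.7% for WY. The PHD finger gene LOC_Os03g53630 at 1.12 and LOC_Os06g25130 at 1.14 came next. For LOC_Os05g04330 they were the cornichon gene LOC_Os12g32180 at 1.40, the BAK1-like kinase gene LOC_Os01g17250 at 1.81 and the casein kinase gene LOC_Os02g17910 at 2.41. Each had its highest share in YW, a likeness that follows from the choice by distance. OsDRM2 lay nearest to the SWI/SNF subunit gene LOC_Os02g49190 (0.068), LOC_Os09g39594 (0.074) and LOC_Os01g18320 (0.11). OsDDM1b lay nearest to LOC_Os02g54920 (0.24), LOC_Os11g12800 (0.27) and LOC_Os08g23100 (0.57). OsROS1a lay nearest to the kinase gene LOC_Os10g39670 (0.098), LOC_Os05g02130 (0.16) and LOC_Os06g41750 (0.17).

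Of 20 further listed loci of the methylation pathway, a list also made with earlier results of these data known, 7 had a row in a table. In each set 1 of 6 tested loci was called paternal, where 6.87% of all loci were called paternal for LR-RL and 3.73% for YW-WY. That was OsAGO4b (LOC_Os04g06770), an Argonaute of RNA-directed methylation, with 28.3% in LR, the lowest, then 38.4% for RL, 40.4% for YW and 42.4% for WY (adjusted p = 7.39e-133 for LR-RL and 7.34e-98 for YW-WY, exact binomial test). In the same order its paralog AGO4a lay at 66.7%, 66.1%, 75.4% and 66.2%. The DNMT2 locus had 61.6%, 66.8%, 78% and 59.1%, and RDR2 and DCL3a lay between 63.1% and 77.5%, with no parental call. NRPE1, with rows in LR and RL only, had 66.8% and 57.9%. LOC_Os02g29380, annotated as an expressed protein, had 90.4% in YW and 12.9% in WY, a difference by strain (adjusted p = 7.60e-34, Fisher's exact test). No listed locus was called maternal in either set, where 2.03% and 5.99% of all loci were.

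**Figure D5:**
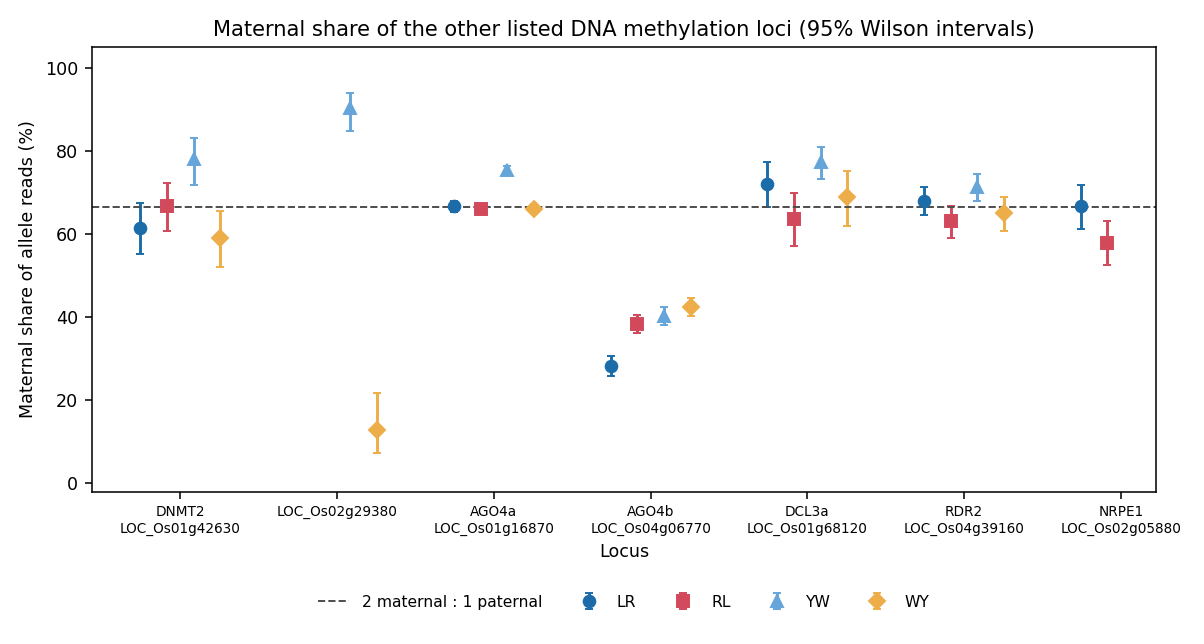
Maternal share of allele reads (percent, vertical axis) for 7 further loci of the methylation pathway in the crosses where they have rows, with 95% Wilson intervals and a dashed line at 66.7%. OsAGO4b lies below the line in all 4 crosses, from 28.3% to 42.4%.

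In total reads at the same SNPs, OsMET1b held 32.2 RPM in LR and 47.5 RPM in RL, and 46.3 RPM in YW against 56.003 RPM in WY. LOC_Os05g04330 went the other way, with 10.6 RPM in LR against 6.27 RPM in RL, and 13.8 RPM in YW against 8.02 RPM in WY. OsROS1a held 32.2 RPM and 30.7 RPM in the first pair of crosses and 97.6 RPM and 52.1 RPM in YW and WY. For OsDRM2 the values were 11.98 RPM in LR and 7.75 RPM in RL, then 6.69 RPM and 3.04 RPM. SNP sets differ between the tables for OsDRM2, OsDDM1b, OsROS1a and LOC_Os05g04330, so their levels can be compared within a set only. The SNPs of OsMET1b are the same in both, but the total reads behind RPM come from unlike SNPs in each set. No replicate spread is known for any of these genes.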

How the data were processed

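The deposited tables hold whole-number read counts of the maternal and the paternal allele per SNP and cross, with 1 column per allele and cross, per the file headers, so the replicates had been pooled by the authors. The deposited p-value and false discovery rate per SNP are theirs too, and were printed only as such. GATK 3.5, SAMtools 0.1.16, Bowtie2 2.2.1 and Trimmomatic 0.32 are named, with no role or order, by the submitters' processing notes. The sources used here do not give the genome build. Each listed SNP has at least 11 reads in each cross of its table. The 5 libraries of the inbred controls were not analysed here.

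Counts were summed over the SNPs of a locus, so a read over several SNPs counts at each. Tested loci had at least 30 reads in both LR and RL, or 20 in both YW and WY. Each cross was tested against 2:1 by an exact two-sided binomial test (SciPy 1.17.1), the larger p of a set being adjusted by Benjamini-Hochberg. Strain effects used Fisher's exact test (two-sided) between reciprocal crosses, and differences between sets a z test on log odds, with 0.5 added to counts. Intervals are Wilson 95% for shares and exact Poisson for levels, and a count of 0 is bounded by 3 counts. A joint fit of the 4 crosses used edgeR 4.0.16 (quasi-likelihood, R 4.3.3) with 1 residual degree of freedom and a common dispersion of 0.0469. The tests were checked on simulated independent counts. These had no replicate spread, no reads counted at several SNPs and no shift of a whole cross, so the check does not cover such errors.

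The genes and lists were chosen with earlier results of these data known. The genes named are the 6 genes chosen, the listed pathway loci with a row, and the 3 loci nearest to each of them in the 4 departures. None of the 6 identifiers matched the RefSeq gene table, so no sequence beyond the SNP bases is shown.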

Additional observations from a re-analysis of the deposited data

Results flagged for a closer look

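The parental departure of OsMET1b differed between the cross sets by 0.57 (log2, YW-WY minus LR-RL), and that of OsROS1a by 0.52, both by the z test on counts. The maternal shares of OsMET1b were 11.2% in LR against 22.9% in YW, with a japonica mother, and 49.5% in RL against 47.8% in WY, with an indica mother. OsROS1a stood at 60.2% in LR against 75.5% in YW, and at 59.8% in RL against 60.0% in WY. Taken from the median ratio of each cross, the differences were 0.31 and 0.27, and without the SNP C156T the difference of OsROS1a was 0.65. The median tested locus of YW was at 75.1%, against 67.1% in LR, and 39.2% of loci differed in the same direction. This test covers counting error only, and it takes the counts of SNPs close together as independent.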

How the results depend on the processing

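No paired analysis was possible because the replicates of a cross are pooled in the tables, and for the same reason no replicate could be left out. The paternal calls of OsMET1b and LOC_Os05g04330 were kept in both sets under each alternative in which they were tested. Paternal calls in LR-RL numbered 2 in place of 4 with only the SNP with most reads. The joint edgeR fit, which covers the 4 crosses and not LR-RL alone, made 2. Strain calls in YW-WY numbered 3 in place of 5 with only the SNP with most reads, 3 with at least 100 reads per cross (3 genes left) and 3 against the median ratio. Several departures near 0 changed sign (log2). With the median ratio as null, the strain value of LR-RL became -0.054 for OsDDM1b and -0.088 for OsROS1a, the parental value of YW-WY -0.024 for OsDRM2 and -0.067 for OsROS1a, and the difference between sets -0.20 for OsDRM2 and -0.11 for OsDDM1b. The joint fit, over the 4 crosses, gave OsROS1a -0.15, against -0.42 in LR-RL and 0.11 in YW-WY. Without its SNP with most reads OsDRM2 had a parental value of -0.035 in LR-RL. With only that SNP, or only the SNPs in both tables, its difference between sets was -0.12, and with only that SNP the strain value of OsROS1a in YW-WY was -0.018 and its call was lost. The median ratio as null shifts a given kind of value by the same amount at every locus, and the joint fit takes both sets together. The cause of the other changes was not tested. Depth limits OsCMT3a (26 to 57 reads per cross) and OsDDM1b (22 to 153).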
